A study of Mus musculus with 16 samples.

Results

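Collagens, basement membrane proteins and the proteases that act on the extracellular matrix were examined in the lung of mice with experimental asthma. The genes were taken by their symbols on the array: collagen chains, laminin chains, nidogens, elastin, fibulins, fibrillins, fibronectin, lysyl oxidases, tenascin C, periostin, the Sparc and thrombospondin families, lumican, decorin, biglycan, the matrix metalloproteinases (Mmp), the ADAM and ADAMTS proteins and the tissue inhibitors of metalloproteinases (Timp). This rule found 147 genes on the platform. Of these, 96 had values that could be assigned to them (120 probe sets, out of 9866 genes in all). The other 51, among them Col3a1, Timp1, Mmp12, Mmp8, Dcn and Thbs1, were not analysed here. Of the 96, 70 exceeded log2 4, taken as the background, on at least 4 arrays and were tested among 7276 genes.

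Whole lung RNA was measured on 16 Affymetrix arrays that formed 4 groups of 4. The titles name the lines BALB/c and BALB-RAG, and each line received either the allergen ovalbumin (OVA), a protein of egg white, or phosphate-buffered saline (PBS) as control, with lungs taken on day 22, the day after exposure ended. Rag genes are needed to assemble T and B cell receptors, and loss of one leaves a mouse without mature T and B cells; the titles do not say which Rag gene or allele is meant. No age is labelled, and nothing states that the replicates were separate mice, so the p-values describe the spread of these samples, which may be technical.

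The extracellular matrix of the lung holds fibrillar collagens that resist tension, elastic fibres that give recoil, and basement membranes of type IV collagen, laminins and nidogens under the epithelium and endothelium. Collagen and elastin are cross-linked outside the cell by lysyl oxidases, Mmp, ADAM and ADAMTS enzymes cleave matrix and cell surface proteins, and Timp proteins inhibit them. In asthma the airway wall is known to gain collagen, fibronectin and tenascin C, a change called remodelling.

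Median intensities per array lay between 18.2 and 20.5. Probe set labels had to be realigned to their values, as described with the processing, and every gene name depends on it. Surfactant protein C, the marker of alveolar type II cells, was at log2 14.0 to 14.55 on the 16 arrays. Arrays titled BALB-RAG did not all lack lymphocyte transcripts. Cd3d, a chain of the T cell receptor complex, was at log2 5.93, 5.52, 4.88 and 5.35 on the BALB-RAG PBS arrays (replicates 1 to 4, as in every list of 4 values here) and at 6.13, 6.15, 4.98 and 5.65 on the BALB/c PBS arrays. On the BALB-RAG OVA arrays it was at 2.50, 7.03, 2.32 and 2.38, so replicate 2 stood apart. Igha, the heavy chain of immunoglobulin A, was at 10.79, 8.45, 9.04 and 10.72 on the BALB-RAG PBS arrays, above every BALB/c PBS array (6.92, 7.86, 6.66 and 6.83), and at 3.98, 10.97, 3.59 and 5.52 on the BALB-RAG OVA arrays. Rag2 was under log2 4 on 15 of the 16 arrays and at 4.20 on BALB-RAG PBS replicate 1, which checks no title because lung is not a site where it is active. BALB-RAG below means the arrays so titled. For comparisons that involve BALB-RAG OVA replicate 2, the calls are also given without it. Counts of directions, of unadjusted p and of groups without overlap, and marker sums, are given only with it. Replicates 1 and 2 of every group also stood apart from replicates 3 and 4: over all genes, deviations from the group means correlated at a median of 0.314 between arrays of different number within these sets and at -0.316 across them. These 2 sets follow the order of the accessions, the labels do not call them a batch, and the values within each set are given below for every called gene whose sets differed by more than 2 times.

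Promoter sequences are shown for a pair of proteases with the same short motifs and opposite responses to OVA in BALB/c (Mmp13, collagenase 3, and Mmp3, stromelysin 1) and for a type I collagen chain (Col1a2). Each is the 250 bases before the RefSeq start on the gene's own strand in GRCm38.p6. Capitals mark matches to the AP-1 motif (TGANTCA), the TATA box (TATAAA) and the CCAAT box (CCAAT), searched on both strands.
Mmp13, chr9:7272264-7272513, plus strand: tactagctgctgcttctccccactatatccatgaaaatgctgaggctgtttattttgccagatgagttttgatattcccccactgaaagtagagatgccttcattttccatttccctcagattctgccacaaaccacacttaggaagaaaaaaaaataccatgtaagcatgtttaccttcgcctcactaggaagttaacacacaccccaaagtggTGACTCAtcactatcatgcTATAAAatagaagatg
Mmp3, chr9:7445572-7445821, plus strand: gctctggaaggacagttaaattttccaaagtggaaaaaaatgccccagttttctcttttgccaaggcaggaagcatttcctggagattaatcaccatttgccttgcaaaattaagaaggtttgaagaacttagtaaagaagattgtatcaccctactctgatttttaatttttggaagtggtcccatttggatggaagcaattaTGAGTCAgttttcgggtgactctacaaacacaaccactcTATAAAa
Col1a2, chr6:4505368-4505617, plus strand: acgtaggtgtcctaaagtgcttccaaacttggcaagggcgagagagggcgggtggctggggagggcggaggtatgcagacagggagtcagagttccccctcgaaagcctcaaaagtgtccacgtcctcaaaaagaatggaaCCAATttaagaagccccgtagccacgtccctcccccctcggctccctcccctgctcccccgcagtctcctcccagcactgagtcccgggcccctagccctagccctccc
In the Mmp13 window the AP-1 match lies 35 to 29 bases and the TATA match 16 to 11 bases before the start. The Mmp3 window has its AP-1 match 46 to 40 bases and its TATA match 7 to 2 bases before the start. Col1a2 has 1 CCAAT match, 109 to 105 bases before the start, and neither of the other motifs. Of the 96 genes 61 had a promoter in the RefSeq table, with 72 windows. AP-1 matches were in 8 of those windows (11.1%) and in 6.75% of all 32851 windows. The 8 genes were Mmp13, Mmp3, Adam19, Adam25, Mmp10, Mmp1a, Mmp1b and Mmp20, and the last 5 of them were under the filter on low values in these lungs. TATA matches were in 20.8% of the windows of these genes and 12.4% of all, and CCAAT matches in 30.6% and 33.8%. A match describes letters in the window and shows no binding.

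The first comparison asked how matrix genes of BALB/c lung differed after OVA. Chains of fibrillar and associated collagens, fibronectin, tenascin C and the proteases Mmp13, Mmp19, Mmp2, Adam8, Adam17 and Adam19 were higher after OVA than after PBS. Lower after OVA were Mmp3, Adamts5, Adamts8, the inhibitor Timp3, the laminin chain Lamb2 and the collagen chain Col8a2. In all, 13 of the 70 tested genes rose and 6 fell (limma, Benjamini-Hochberg adjusted p under 0.05), or 18.6% and 8.57%. Over all 7276 genes 15.5% were called, 8.73% higher and 6.78% lower. The median log2 difference of the 70 genes was -0.13, against 0.00 over all genes. The 4 arrays of each group did not overlap for 14 higher genes (20%, against 10.4% of all genes) and 7 lower genes (10%, against 9.24%). All 19 called genes had the same sign in both sets of replicates, which their choice on all 4 replicates makes likely beforehand. Replicates 3 and 4 alone gave 9 calls and replicates 1 and 2 alone 22. Over all genes, replicates 3 and 4 called 378 higher and 169 lower, and replicates 1 and 2 called 584 and 494. With the probe sets of each gene averaged, 15 of 67 tested matrix genes rose and 7 fell, against 621 and 505 of all 7145 genes. In bulk tissue, fewer cells of a type and less RNA per cell cannot be told apart.

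Of the 5 fibrillar collagen chains tested, 3 rose and none fell. Col1a1, the first chain of type I collagen, was at log2 8.51, 8.62, 7.97 and 7.87 on the BALB/c PBS arrays and 9.72, 10.41, 9.36 and 9.38 on the OVA arrays. The groups did not overlap, and the OVA group was 2.78-fold higher, a log2 difference of 1.47 (SE 0.29, adjusted p = 0.0025) by limma. Col1a2, its partner chain, lay at log2 7.88, 7.83, 8.42 and 8.50 after PBS and 9.52, 10.24, 9.73 and 9.56 after OVA. That was a 3.04-fold rise, log2 1.60 (SE 0.22, adjusted p = 0.000182), of 2.03 in replicates 1 and 2 and 1.18 in replicates 3 and 4. Col5a2, a chain of type V collagen that sits inside type I fibrils and sets their width, read 9.44, 9.36, 9.77 and 9.56 after PBS and 10.46, 10.95, 10.67 and 10.47 after OVA, a log2 difference of 1.10 (SE 0.18, adjusted p = 0.000526) with no overlap. Col5a1, the other main type V chain, had a log2 difference of 0.59 (SE 0.20, adjusted p = 0.056) and missed the threshold on the probe set used. Its other probe sets rose more, by log2 0.95 and 0.75. Col5a3 had -0.24 (adjusted p = 0.531).

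Among the 11 other collagens, 2 rose and 1 fell. Col6a2, a chain of the beaded filaments of type VI collagen, was at log2 8.11, 8.16, 8.06 and 8.14 on the BALB/c PBS arrays and 8.64, 9.08, 8.90 and 8.86 on the OVA arrays. This rise of log2 0.75 (SE 0.15, adjusted p = 0.00243) was well above the spread of the 4 PBS arrays. Col14a1, a collagen that binds the surface of fibrils, read 6.91, 6.53, 7.09 and 6.86 after PBS and 7.50, 7.50, 7.91 and 7.42 after OVA, log2 0.73 (SE 0.16, adjusted p = 0.00523). Col8a2, a short network-forming chain, was lower after OVA, with a log2 difference of -0.75 (SE 0.21, adjusted p = 0.0232). Its 4 OVA arrays were all under log2 4, so the PBS group was at least 1.16-fold higher. Col12a1, which also binds fibrils, read 7.12, 6.65, 7.52 and 7.24 after PBS and 5.69, 6.34, 5.86 and 6.14 after OVA without overlap. It missed the threshold with a log2 difference of -1.12 (SE 0.47, adjusted p = 0.13), and its second probe set had -0.44.

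None of the 6 basement membrane collagens passed the test in BALB/c. Col4a1 and Col4a2, which together form the common type IV network, had log2 differences of 0.16 (95% interval -0.11 to 0.44) and 0.14 (95% interval -0.11 to 0.39). Col18a1, the source of the fragment endostatin, was higher on every OVA array than on any PBS array, at log2 6.50 to 6.62 against 5.81 to 6.44. Its difference of log2 0.48 (SE 0.17, adjusted p = 0.0763) missed the threshold, and its second probe set rose by log2 0.82. The laminins and nidogens leaned lower, with negative differences in 9 of 10 genes and 1 call. Lamb2, a laminin beta chain, was at log2 7.59, 7.61, 7.75 and 7.56 after PBS and 7.08, 6.95, 6.59 and 7.33 after OVA, a log2 difference of -0.64 (SE 0.16, adjusted p = 0.0135). Lamc1, the gamma chain of most laminins, did not overlap either, at log2 8.29 to 8.58 after PBS and 7.91 to 8.18 after OVA, with an adjusted p of 0.0914. Its log2 difference was -0.32, and -0.17 on its second probe set.

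Fibronectin and tenascin C, both laid down in the early matrix of injured tissue, rose in BALB/c. Fn1 was at log2 10.37, 10.71, 10.55 and 10.56 after PBS and 11.51, 11.97, 11.65 and 11.38 after OVA, log2 1.08 (SE 0.15, adjusted p = 0.000144). Tnc was at 5.82, 5.94, 5.65 and 6.0 after PBS and 7.33, 8.17, 6.41 and 7.92 after OVA, a 3.05-fold rise with a log2 difference of 1.61 (SE 0.32, adjusted p = 0.0026). The lowest OVA array of Tnc, replicate 3, was still above every PBS array. Elastin (Eln) was more scattered, at log2 8.64, 9.20, 8.26 and 8.53 after PBS and 10.32, 10.64, 9.42 and 8.56 after OVA. Replicate 4 after OVA lay among the PBS arrays, and the log2 difference of 1.08 (SE 0.39, adjusted p = 0.0729) missed the threshold. The second Eln probe set had 1.38. Periostin (Postn), a matricellular protein known to be induced by interleukin 13, was at log2 11.22 to 11.78 after PBS and 10.90 to 11.53 after OVA in BALB/c (log2 -0.29, 95% interval -0.66 to 0.07). Postn, Mmp9 and Mmp14 were singled out after their values were seen.

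**Figure D1:**
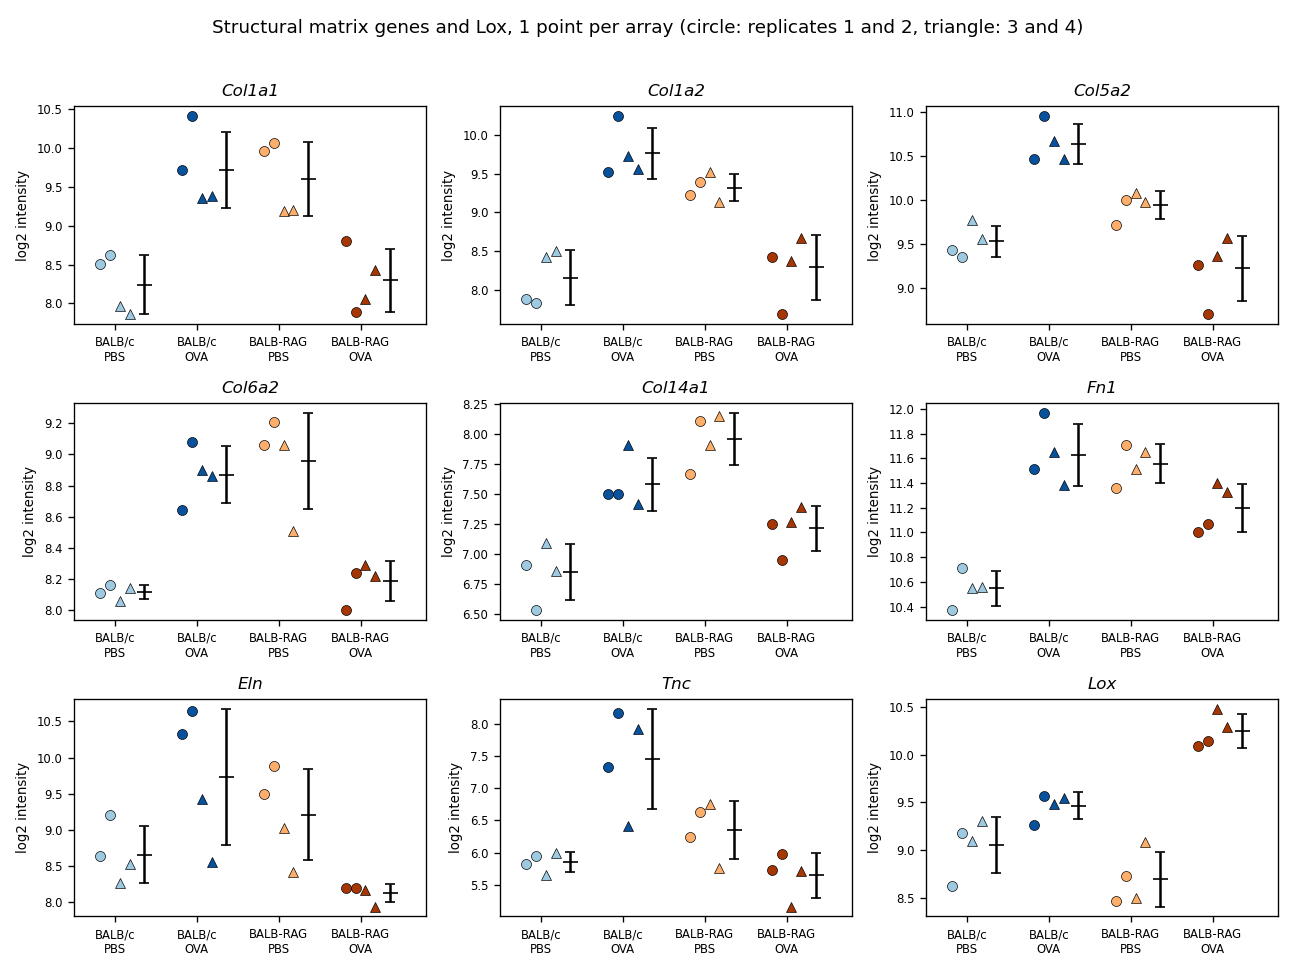
Log2 intensity of 9 matrix genes on each array by group. Circles are replicates 1 and 2, triangles replicates 3 and 4, and bars the mean ± SD of 4 arrays. Col1a1, Col1a2, Col6a2 and Fn1 are higher on the BALB/c OVA and BALB-RAG PBS arrays than on the BALB/c PBS arrays without overlap, and Lox is highest on the BALB-RAG OVA arrays.

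The largest changes were in proteases. Of 8 matrix metalloproteinases 3 rose and 1 fell in BALB/c. Mmp13, which cleaves fibrillar collagen, was under log2 4 on all 4 PBS arrays, at 2.62, 2.60, 3.42 and 3.70. After OVA it read 8.80, 9.83, 5.69 and 5.58, a log2 difference of 4.39 (SE 0.71, adjusted p = 0.000572), and was at least 11.1-fold higher. Mmp13 passed the filter on low values only through these 4 OVA arrays. Its adjusted p, here and in the comparisons below, is therefore no support beyond the values themselves. The log2 difference also uses PBS values under the background. The rise was log2 6.71 in replicates 1 and 2 and 2.07 in replicates 3 and 4, so the sets differ in size but not in direction.

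Mmp19, a secreted protease, was at log2 4.87, 5.11, 4.90 and 4.51 after PBS and 7.96, 9.30, 8.26 and 6.95 after OVA. This was a 9.63-fold rise, log2 3.27 (SE 0.49, adjusted p = 0.000338), and its second probe set rose by log2 2.39. Mmp2, gelatinase A, was at 7.21, 7.21, 7.52 and 7.80 after PBS and 8.80, 8.71, 8.90 and 8.71 after OVA, with log2 1.35 (SE 0.14, adjusted p = 1.26e-05) and the smallest adjusted p of the matrix genes in this comparison. Mmp3 went the other way, from 7.94, 8.27, 8.58 and 8.95 after PBS to 7.30, 7.34, 7.59 and 8.0 after OVA. Its ranges overlapped, and the log2 difference was -0.87 (SE 0.24, adjusted p = 0.0217). Mmp14, the membrane protease that activates the precursor of Mmp2, read 7.58, 7.62, 5.99 and 5.89 after OVA against 5.64 to 6.17 after PBS. Only replicates 1 and 2 were above the PBS range, and the log2 difference was 0.79 (SE 0.37, adjusted p = 0.187). Mmp9, gelatinase B of neutrophils, had a log2 difference of -0.14 (adjusted p = 0.895) and was at 6.28, 6.66, 5.21 and 5.19 after PBS. Its high arrays, replicates 1 and 2, were those with the highest S100a8, a neutrophil transcript, at log2 11.71, 12.35, 8.88 and 8.51.

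Of 8 ADAM genes 3 rose in BALB/c and none fell. Adam8, a protease of leukocytes, was at log2 6.33, 6.54, 5.89 and 6.21 after PBS and 9.64, 9.68, 8.66 and 7.61 after OVA, a 6.32-fold rise of log2 2.66 (SE 0.38, adjusted p = 0.000208). Adam17, which sheds tumour necrosis factor from cells, rose by log2 0.69 (SE 0.16, adjusted p = 0.0063). Its 3 probe sets rose by log2 0.53 to 0.69. Adam19, another sheddase, rose by log2 0.77 (SE 0.17, adjusted p = 0.0063), from log2 8.03 to 8.45 after PBS to 8.82 to 9.25 after OVA.

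The ADAMTS genes and the inhibitors all had negative differences in BALB/c. Adamts5, an aggrecanase, was at log2 6.13, 6.01, 7.16 and 6.70 after PBS and 5.43, 5.19, 5.96 and 5.93 after OVA, a log2 difference of -0.87 (SE 0.28, adjusted p = 0.0449). Adamts8 changed by -0.52 (SE 0.14, adjusted p = 0.0161) without overlap. Timp3, the inhibitor that is bound to the matrix and also blocks Adam17, was at log2 10.48, 10.70, 10.86 and 10.92 after PBS and 9.38, 9.46, 10.27 and 10.48 after OVA. It changed by log2 -0.84 (SE 0.25, adjusted p = 0.0348), its groups overlapped, and its second probe set fell by 0.87 on the log2 scale. Timp2 and Timp4 did not pass, with log2 differences of -0.31 and -0.34, and the second probe set of Timp2 had -0.68. Without BALB/c OVA replicate 2 or without BALB/c PBS replicate 3, 1 fall was called in place of 6, and the rises numbered 13 and 15. Over all genes the falls then numbered 312 and 368 in place of 493, and the rises 478 and 502 in place of 635. Lamb2 kept its call with each array left out in turn. The falls of Adamts5, Timp3, Col8a2, Mmp3 and Adamts8 did not, with adjusted p (limma) reaching 0.15 for Adamts5, 0.119 for Timp3, 0.0868 for Col8a2, 0.0793 for Mmp3 and 0.0599 for Adamts8. Beside Mmp13, 3 called genes had sets that differed by more than 2 times: Timp3 at -1.17 in replicates 1 and 2 and -0.51 in replicates 3 and 4, Col8a2 at -1.09 and -0.41 and Adam17 at 0.96 and 0.42.

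**Figure D2:**
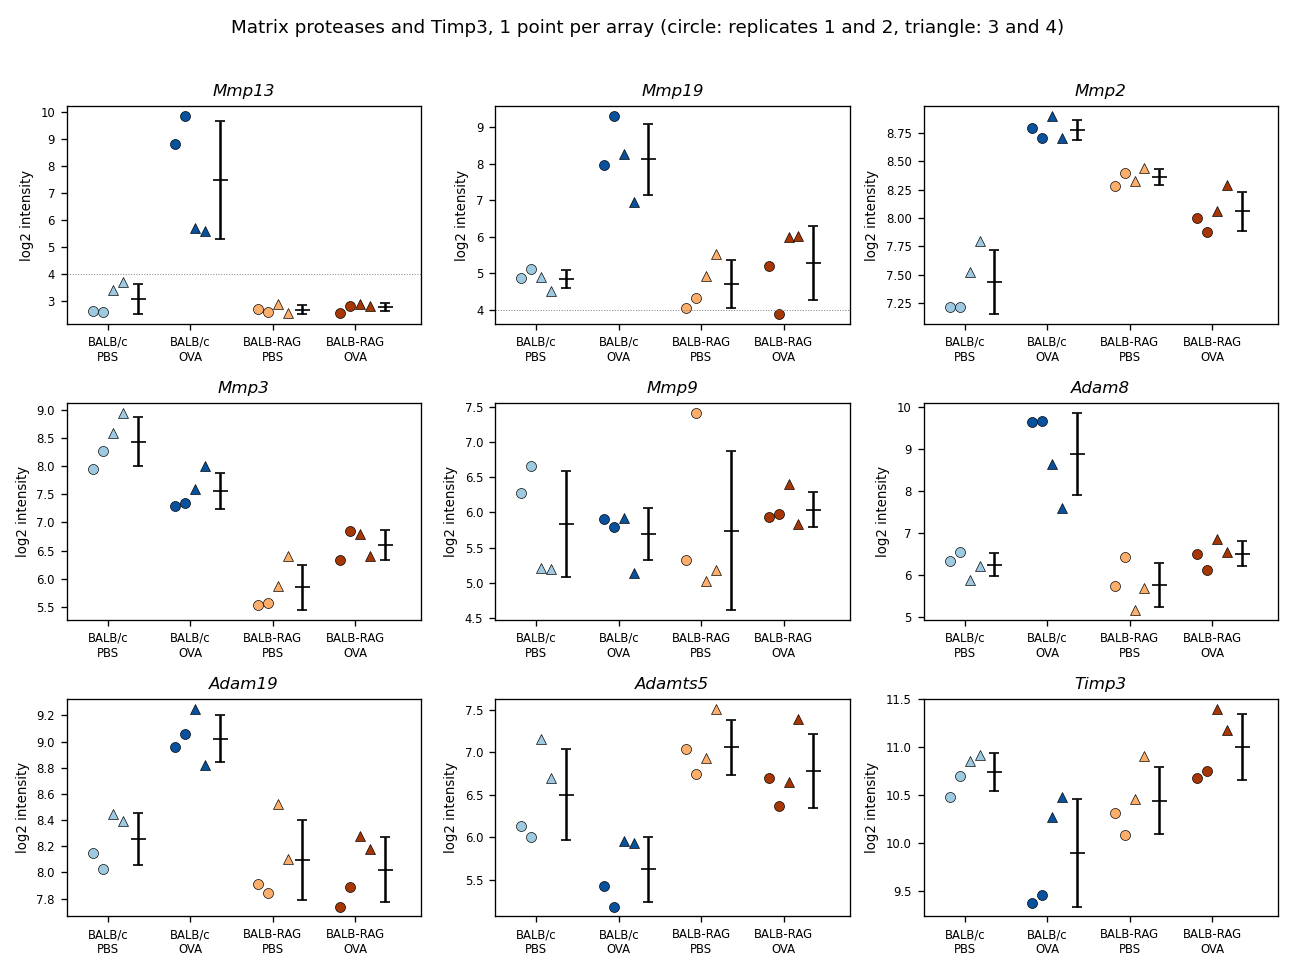
Log2 intensity of 8 proteases and the inhibitor Timp3 on each array by group, with symbols and bars as for the matrix genes and a dotted line at log2 4. Mmp13 is under the line except on the 4 BALB/c OVA arrays, where replicates 1 and 2 read 8.80 and 9.83 and replicates 3 and 4 read 5.69 and 5.58.

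Other cells changed in the same BALB/c arrays. All 5 macrophage markers tested rose after OVA, with a summed intensity of 509 to 956 after PBS and 2741 to 6960 after OVA. C1qb, a complement gene of macrophages, was at log2 7.66, 7.55, 6.70 and 6.35 after PBS and 11.18, 11.16, 10.26 and 9.77 after OVA. It was higher on replicates 1 and 2 than on replicates 3 and 4 after PBS as well as after OVA. Of 5 tested genes of proliferating cells 4 rose (summed intensity 184 to 215 and 708 to 1256). Of 6 tested genes listed for fibroblasts, 2 rose (Thy1 and S100a4) and 1 fell (Tcf21), with a median log2 difference of -0.18. The sums of this list were 4670 to 5254 after PBS and 3968 to 4803 after OVA. Which cells carried the rises of Thy1 and S100a4 was not tested. Of 7 endothelial markers 3 fell (9607 to 10861 and 4406 to 7613). Smooth muscle markers gave no call among 5. Of the lymphocyte markers, 4 of 6 for T cells (199 to 290 and 395 to 960) and 2 of 6 for B cells (459 to 534 and 690 to 1506) rose. Adipoq, the hormone of fat cells and the only tested gene of its list, fell by 2.32 on the log2 scale. The fall in 1 of 4 cardiac markers (1239 to 1860 and 446 to 865) and 1 of 3 mesothelial markers (223 to 414 and 45 to 212) went the same way. The part of these cells in the matrix differences was not tested.

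The OVA response was then measured in BALB-RAG. Lysyl oxidase (Lox), the enzyme that cross-links collagen and elastin, rose, and no other matrix gene passed the threshold. That is 1 of 70 genes (1.43%), against 0.165% called over all genes, 0.137% higher and 0.0275% lower. Lox was at log2 8.47, 8.73, 8.50 and 9.09 after PBS and 10.09, 10.14, 10.48 and 10.29 after OVA. All 4 OVA arrays were above all PBS arrays, 2.94-fold on average, with a log2 difference of 1.55 (SE 0.17, adjusted p = 0.000927), or 1.52 in replicates 1 and 2 and 1.59 in replicates 3 and 4. In BALB/c, Lox was at 8.63, 9.18, 9.10 and 9.31 after PBS and 9.26, 9.57, 9.48 and 9.55 after OVA, log2 0.41 (SE 0.17, adjusted p = 0.125). Its relatives Loxl1 and Loxl3 had BALB-RAG differences of -0.44 and 0.0, neither past the threshold.

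No collagen passed adjustment after OVA in BALB-RAG, and 18 of 22 had negative differences, as did elastin. Of the 70 genes, 48 had negative differences with a median of -0.18 (0.02 over all genes). At an unadjusted p under 0.05, 19 genes (27.1%) were lower, against 3.37% of all genes. The 4 arrays of each group did not overlap for 14 lower genes, which is 20% of the 70 against 1.95% of all genes. These 14 were Col1a1, Col1a2, Col5a2, Col5a3, Col6a2, Col6a3, Col14a1, Col18a1, Col4a6, Eln, Fbln5, Lamb3, Sparc and Adamts8. In the other direction only Lox did not overlap, 1.43% against 2.67% of all genes.

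All 5 fibrillar chains had negative BALB-RAG differences. Col1a1 was at log2 9.96, 10.06, 9.19 and 9.20 after PBS and 8.81, 7.89, 8.06 and 8.43 after OVA, a log2 difference of -1.31 (SE 0.29, adjusted p = 0.0844). Col1a2 was at 9.23, 9.39, 9.52 and 9.14 and 8.43, 7.69, 8.37 and 8.67, log2 -1.03 (SE 0.22, adjusted p = 0.0812). Eln was at 9.50, 9.88, 9.03 and 8.42 and 8.19, 8.20, 8.17 and 7.94, log2 -1.08 (SE 0.39, adjusted p = 0.406). For these 3 genes every OVA array was under every PBS array, and no difference passed adjustment. Col6a2 was at 9.06, 9.21, 9.06 and 8.51 after PBS and 8.0, 8.24, 8.29 and 8.22 after OVA, and its log2 -0.77 (SE 0.15, adjusted p = 0.0528) came nearest. Without BALB-RAG OVA replicate 2 it was called at log2 -0.79, and Lox remained the only rise. Neither set of replicates alone gave a call. Over all genes, replicates 1 and 2 alone called 1 higher and 2 lower, and replicates 3 and 4 alone 4 and 1. With a term for the sets in the fit, 1 of the 70 genes rose and 8 fell. Over all 7276 genes that fit called 38 higher and 29 lower, so the number of falls called depends on this term.

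**Figure D3:**
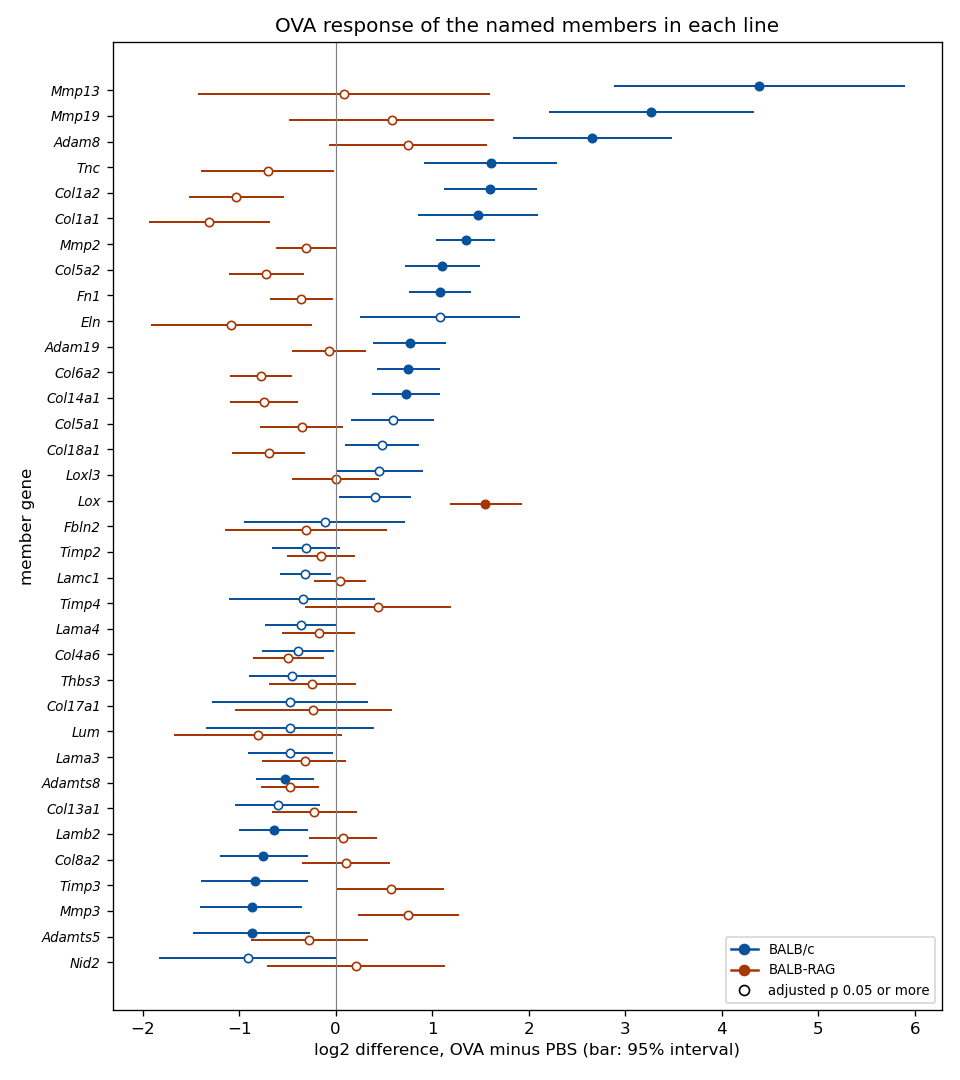
OVA minus PBS difference of log2 intensity for 35 matrix genes in BALB/c (blue) and BALB-RAG (orange), with 95% intervals from limma. Filled points passed an adjusted p of 0.05. Mmp13, Mmp19 and Adam8 lead the BALB/c rises, Lox is the filled BALB-RAG point, and Col1a1, Col1a2, Eln, Col6a2 and Col14a1 have intervals on opposite sides of 0.

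The next comparison tested whether the OVA responses of the lines differed (BALB/c response minus BALB-RAG response). The responses differed for 19 of 70 genes (27.1%), 16 of them more positive in BALB/c, 22.9% against 4.63% of all genes, and 3 more negative, 4.29% against 3.86%. Over all genes 8.49% were called. The 16 were Col1a1, Col1a2, Col5a1, Col5a2, Col6a2, Col6a3, Col14a1, Col18a1, Eln, Fn1, Tnc, Mmp2, Mmp13, Mmp19, Adam8 and Adam19. The 3 were Lox, Mmp3 and Timp3. This test shares its arrays with both responses above.

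Collagens make up 8 of the 16. Col1a1 had a difference of responses of log2 2.78 (SE 0.41, adjusted p = 0.00057), made of 1.47 in BALB/c and -1.31 in BALB-RAG. Col1a2 had 2.63 (SE 0.32, adjusted p = 0.000111), made of 1.60 and -1.03. Eln had 2.16 (SE 0.55, adjusted p = 0.0221), made of 1.08 and -1.08, although neither response passed alone. The proteases Mmp13, Mmp19 and Adam8 had BALB-RAG responses at or above 0. Mmp13 had 4.30 (SE 1.0, adjusted p = 0.0139) with a BALB-RAG response of 0.09, and all 8 BALB-RAG arrays were under log2 4 for it. It was in this test only because its BALB/c OVA arrays passed the filter. Mmp19 had 2.69 (SE 0.70, adjusted p = 0.0262) with a BALB-RAG response of 0.58, and Adam8 had 1.91 (SE 0.54, adjusted p = 0.0388) with 0.75. Mmp2 had the smallest adjusted p of the matrix genes, at log2 1.66 (SE 0.20, adjusted p = 9.69e-05), and its BALB-RAG response was -0.31 (95% interval -0.61 to -0.01). Adam19 had 0.84 with a BALB-RAG response of -0.07. Collagens and proteases were not tested against each other. The sets differed by more than 2 times for 3 of the 19 genes. Adam8 had a difference of responses of 3.0 in replicates 1 and 2 and 0.81 in replicates 3 and 4, Eln 3.06 in replicates 1 and 2 and 1.26 in replicates 3 and 4, and Mmp13 6.67 in replicates 1 and 2 and 1.93 in replicates 3 and 4. The BALB-RAG response of Adam8 was 0.23 in replicates 1 and 2 and 1.28 in replicates 3 and 4.

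The 3 genes with a more negative response in BALB/c were of different kinds. Mmp3 had log2 -1.63 (SE 0.34, adjusted p = 0.00764), from -0.87 in BALB/c and 0.75 in BALB-RAG, where it was at 5.54, 5.57, 5.87 and 6.41 after PBS and 6.34, 6.85, 6.80 and 6.41 after OVA. Timp3 had -1.41 (SE 0.36, adjusted p = 0.0244) and Lox -1.15 (SE 0.24, adjusted p = 0.00764). With each array left out in turn, 12 of the 19 genes kept their call. Adam19, Adam8, Col5a1, Col6a3, Mmp19, Timp3 and Eln did not, with limma adjusted p reaching 0.0929, 0.0856, 0.0948, 0.0951, 0.0555, 0.0558 and 0.0534, the last without BALB/c OVA replicate 1. Without BALB-RAG OVA replicate 2, 12 genes were more positive and 4 more negative, with Adam8, Adam19, Col5a1 and Col6a3 no longer called, at log2 1.78, 0.79, 0.82 and 0.88, and Col8a2 called at -1.03. Over all genes that fit called 332 more positive and 244 more negative. All 19 genes had the same sign in both sets, which their choice on all replicates makes likely beforehand. Replicates 3 and 4 alone gave 6 calls, against 155 more positive and 57 more negative over all genes.

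**Figure D4:**
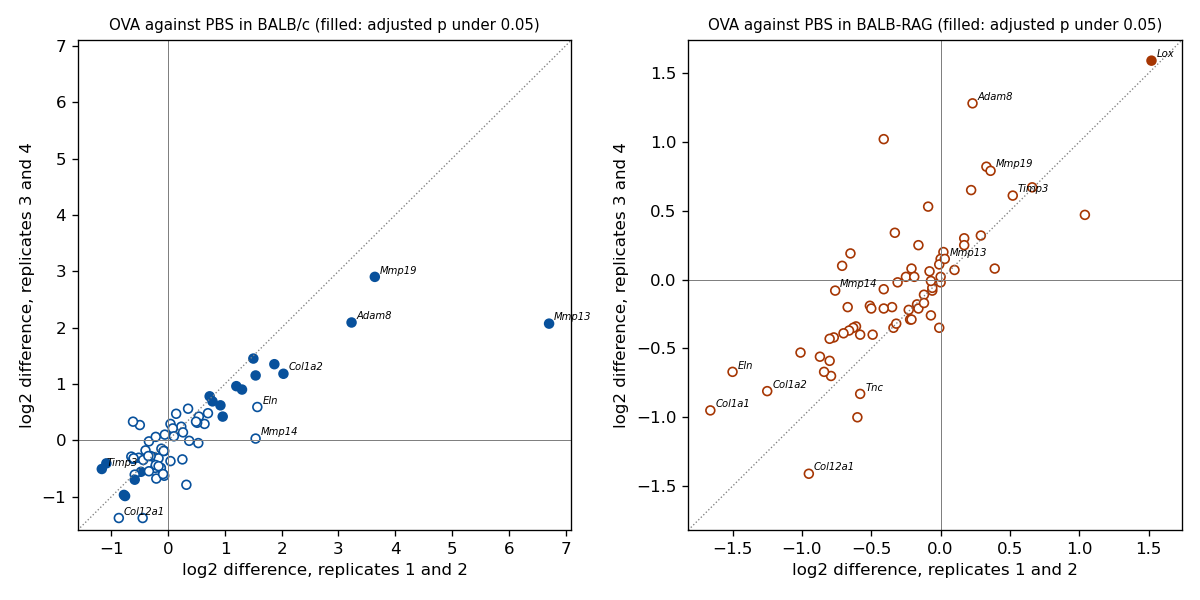
OVA minus PBS log2 difference of each tested matrix gene in replicates 1 and 2 (x axis) and in replicates 3 and 4 (y axis), for BALB/c (left) and BALB-RAG (right). The dotted line marks equal values and filled points passed an adjusted p of 0.05 over all replicates. The filled points have the same sign in both sets, which their choice over all replicates makes likely beforehand. Mmp13 lies farthest from the dotted line, at 6.71 and 2.07.

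The lines were then compared without allergen. After PBS, matrix genes were called higher in BALB-RAG than in BALB/c more often than lower. Of 70 genes 12 were higher (17.1%) and 1 lower (1.43%), against 3.9% called over all genes, 1.97% higher and 1.94% lower. Positive differences were seen for 52 genes, with a median of 0.27 (-0.01 over all genes). The 12 were Col1a1, Col1a2, Col5a1, Col6a2, Col13a1, Col14a1, Col18a1, Fbln2, Fn1, Lama4, Lum and Mmp2. For 18 genes (25.7%, against 4.21% of all) every BALB-RAG array was above every BALB/c array, and for 3 (4.29%, against 5.44%) every one was below. These comparisons share the PBS arrays with the OVA responses above, so the values are set side by side and not counted as separate evidence.

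Type I collagen was higher in BALB-RAG after PBS, Col1a1 by log2 1.36 (SE 0.29, adjusted p = 0.0148) and Col1a2 by 1.16 (SE 0.22, adjusted p = 0.00938), from the values given above. Fn1 was at log2 11.36, 11.71, 11.51 and 11.65 in BALB-RAG and 10.37, 10.71, 10.55 and 10.56 in BALB/c, a difference of 1.01 (SE 0.15, adjusted p = 0.00138). Mmp2 was at 8.28, 8.40, 8.33 and 8.44 in BALB-RAG and 7.21, 7.21, 7.52 and 7.80 in BALB/c, 0.93 (SE 0.14, adjusted p = 0.00172). The largest differences among the 12 higher genes were in Fbln2, a fibulin of elastic fibres and basement membranes, and Lum, a proteoglycan that spaces collagen fibrils. Fbln2 was at 6.96, 6.29, 5.62 and 6.78 in BALB-RAG and 5.29, 5.27, 4.53 and 3.57 in BALB/c, log2 1.75 (SE 0.39, adjusted p = 0.0191). Lum was at 8.02, 8.32, 6.91 and 8.36 and 6.70, 5.82, 6.60 and 5.51, log2 1.74 (SE 0.41, adjusted p = 0.0245), with BALB-RAG replicate 3 nearest to the BALB/c range.

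Col14a1 differed by 1.11 (SE 0.16, adjusted p = 0.00132). Col13a1, a collagen anchored in the cell membrane, was at log2 8.73 to 9.09 in BALB-RAG and 7.56 to 8.45 in BALB/c, a difference of 0.92 (SE 0.20, adjusted p = 0.0177). All 10 laminins and nidogens had positive differences on the probe sets used. Lama4, a laminin chain of vessels and mesenchyme, was called at 0.65 (SE 0.17, adjusted p = 0.0451). The second probe sets of Lama4, Lama5, Lamb1 and Lamc1 had 0.15, 0.09, 0.44 and -0.16. Nid2 had 0.73 in replicates 1 and 2 and -0.53 in replicates 3 and 4.

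Mmp3 was the one matrix gene lower in BALB-RAG after PBS. It was at log2 5.54, 5.57, 5.87 and 6.41 in BALB-RAG and 7.94, 8.27, 8.58 and 8.95 in BALB/c. The lowest BALB/c array was above the highest BALB-RAG array, and BALB-RAG was 6-fold lower, a log2 difference of -2.59 (SE 0.24, adjusted p = 2.57e-05), or -2.55 in replicates 1 and 2 and -2.62 in replicates 3 and 4. Without BALB-RAG PBS replicate 1, the calls fell from 13 to 8, 7 higher and 1 lower, and Col1a1 had an adjusted p of 0.0531 by limma. Over all genes that fit called 90 higher and 84 lower, in place of 143 and 141. Col5a1, Col13a1, Fbln2, Lama4 and Lum also lost their call without 1 array or another, with adjusted p reaching 0.128, 0.0591, 0.0693, 0.142 and 0.074. Replicates 3 and 4 alone gave 2 higher and 1 lower, against 22 and 30 over all genes.

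Markers of tissues around the lung also differed between the lines after PBS. Adipoq was at log2 9.75, 10.36, 7.85 and 9.42 in BALB-RAG and 6.69, 8.40, 6.55 and 5.67 in BALB/c. Cardiac markers had sums of 1882 to 10334 in BALB-RAG and 1239 to 1860 in BALB/c (1 of 4 higher), and skeletal muscle markers 146 to 7297 and 66 to 4555 (0 of 4). Smooth muscle sums were 4162 to 6262 and 3063 to 3566 (2 of 5 higher), and fibroblast sums 5725 to 7383 and 4670 to 5254 (1 of 6 higher). Mesothelial sums were 263 to 352 and 223 to 414 (0 of 3). Of 5 genes of proliferating cells 3 were higher, with sums of 318 to 482 and 184 to 215. T cell sums were 183 to 236 in BALB-RAG and 199 to 290 in BALB/c, and B cell sums 191 to 262 and 459 to 534, with no gene called among 6 of each. Their part in the matrix differences was not tested.

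After OVA the lines differed in both directions. Of 70 genes 15 were higher in BALB-RAG (21.4%) and 14 lower (20%), against 23.8% called over all genes, 11.6% higher and 12.1% lower. Lower in BALB-RAG were Col1a1, Col1a2, Col5a2, Col6a2, Eln, Fn1, Tnc, Mmp2, Mmp3, Mmp13, Mmp19, Adam8, Adam17 and Adam19. Higher were Lox, Lum, Fbln2, Col13a1, Col17a1, the basement membrane chains Lama3, Lama4, Lamb2, Lamc1 and Nid2, the proteases Adamts5, Adamts8 and Adamts10, and the inhibitors Timp3 and Timp4. By role, 5 of 10 laminins and nidogens, 3 of 4 ADAMTS genes and 2 of 3 inhibitors were higher, and 3 of 5 fibrillar collagens, 4 of 8 matrix metalloproteinases and 3 of 8 ADAM genes were lower. One of the 5 laminins and nidogens, Lamc1, was higher by log2 0.56 on the probe set used and at -0.70 on its second one, and at -0.07 with both averaged. The groups did not overlap for 11 higher genes (15.7%, against 13.3% of all) and 14 lower genes (20%, against 13.6%).

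Col5a2 was at log2 9.26, 8.71, 9.37 and 9.57 in BALB-RAG after OVA, against the BALB/c values given above, a log2 difference of -1.41 (SE 0.18, adjusted p = 3.72e-05). Eln was lower by 3.06-fold (log2 -1.61 (SE 0.39, adjusted p = 0.00606)) and Tnc, at 5.73, 5.98, 5.16 and 5.71 in BALB-RAG, by 3.52-fold (log2 -1.81 (SE 0.32, adjusted p = 0.000607)). Mmp13 was at 2.55, 2.80, 2.90 and 2.81 in BALB-RAG, so BALB/c was at least 11.1-fold higher. Adam8 was at 6.51, 6.12, 6.87 and 6.55, a difference of -2.39 (SE 0.38, adjusted p = 0.00029). Fn1 had a difference of -0.42 (SE 0.15, adjusted p = 0.0481). Without BALB-RAG OVA replicate 2, 15 genes were higher and 13 lower, with Fn1, Nid2 and Adamts10 no longer called, at -0.38, 1.32 and 0.36, and Fbln1 and Lama2 called at 0.66 and 0.85. Over all genes that fit called 770 higher and 798 lower. Over all arrays left out in turn, the limma adjusted p reached 0.169 for Fn1, 0.127 for Nid2, 0.116 for Adamts10 and 0.064 for Lum, and the other 25 of 29 genes kept their call. The sets differed by more than 2 times for 7 of the 29. In replicates 1 and 2 and in replicates 3 and 4, in that order, the difference was -6.64 and -2.78 for Mmp13, -4.07 and -1.59 for Mmp19 and -3.35 and -1.43 for Adam8. It was -2.29 and -0.94 for Eln, -1.18 and -0.53 for Adam17, 1.92 and 0.90 for Lum and -0.70 and -0.14 for Fn1.

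Timp4, an inhibitor known from heart, was at log2 5.81, 5.40, 4.68 and 5.18 in BALB-RAG after OVA and 3.71, 3.57, 3.85 and 3.46 in BALB/c, where all 4 arrays were under log2 4. BALB-RAG was at least 2.41-fold higher, with a log2 difference of 1.62 (SE 0.35, adjusted p = 0.00305). Timp3 was at 10.68, 10.75, 11.40 and 11.18 in BALB-RAG, higher by 1.11 (SE 0.25, adjusted p = 0.0047) without overlap. Lamb2 was at 7.57, 8.12, 7.68 and 8.04 in BALB-RAG, higher by 0.87 (SE 0.16, adjusted p = 0.0011). Cardiac marker sums were 2186 to 7579 in BALB-RAG and 446 to 865 in BALB/c (4 of 4 higher), and smooth muscle sums 4310 to 5568 and 2463 to 4719 (4 of 5 higher). Fibroblast sums were 5763 to 6247 in BALB-RAG and 3968 to 4803 in BALB/c, with 2 of 6 genes higher and 2 lower. Adipoq was higher by log2 4.75, and 2 of 3 mesothelial markers were higher (255 to 442 and 45 to 212). All 5 macrophage markers were lower in BALB-RAG (715 to 854 and 2741 to 6960). So were 5 of 6 T cell markers (117 to 421 and 395 to 960), 5 of 6 B cell markers (101 to 404 and 690 to 1506) and all 5 genes of proliferating cells (109 to 173 and 708 to 1256). Their part was not tested here either.

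Across the 4 groups several genes thus had their high values in the same groups, BALB/c OVA and BALB-RAG PBS. For Col1a1 the group means were log2 8.24 after PBS and 9.72 after OVA in BALB/c, and 9.60 and 8.30 in BALB-RAG. Col1a2, Col6a2, Fn1 and Mmp2 were also called higher after OVA in BALB/c. In BALB-RAG they were called higher than in BALB/c after PBS and lower than in BALB/c after OVA. For Fn1 and Mmp2, however, the PBS and OVA arrays of BALB-RAG overlapped. Their OVA minus PBS differences in BALB-RAG were log2 -0.5 and -0.41 in replicates 1 and 2. In replicates 3 and 4 they were -0.21 for each. Mki67, a marker of dividing cells, was at log2 6.41, 6.45, 6.55 and 6.93 and 9.07, 9.27, 8.84 and 9.52 on the BALB/c PBS and OVA arrays. On those of BALB-RAG it was at 7.19, 8.32, 7.95 and 7.75 and 6.08, 6.32, 5.59 and 6.65. Its OVA arrays thus lay above its PBS arrays in BALB/c and below them in BALB-RAG. Its relation to the matrix genes was not tested.

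**Figure D5:**
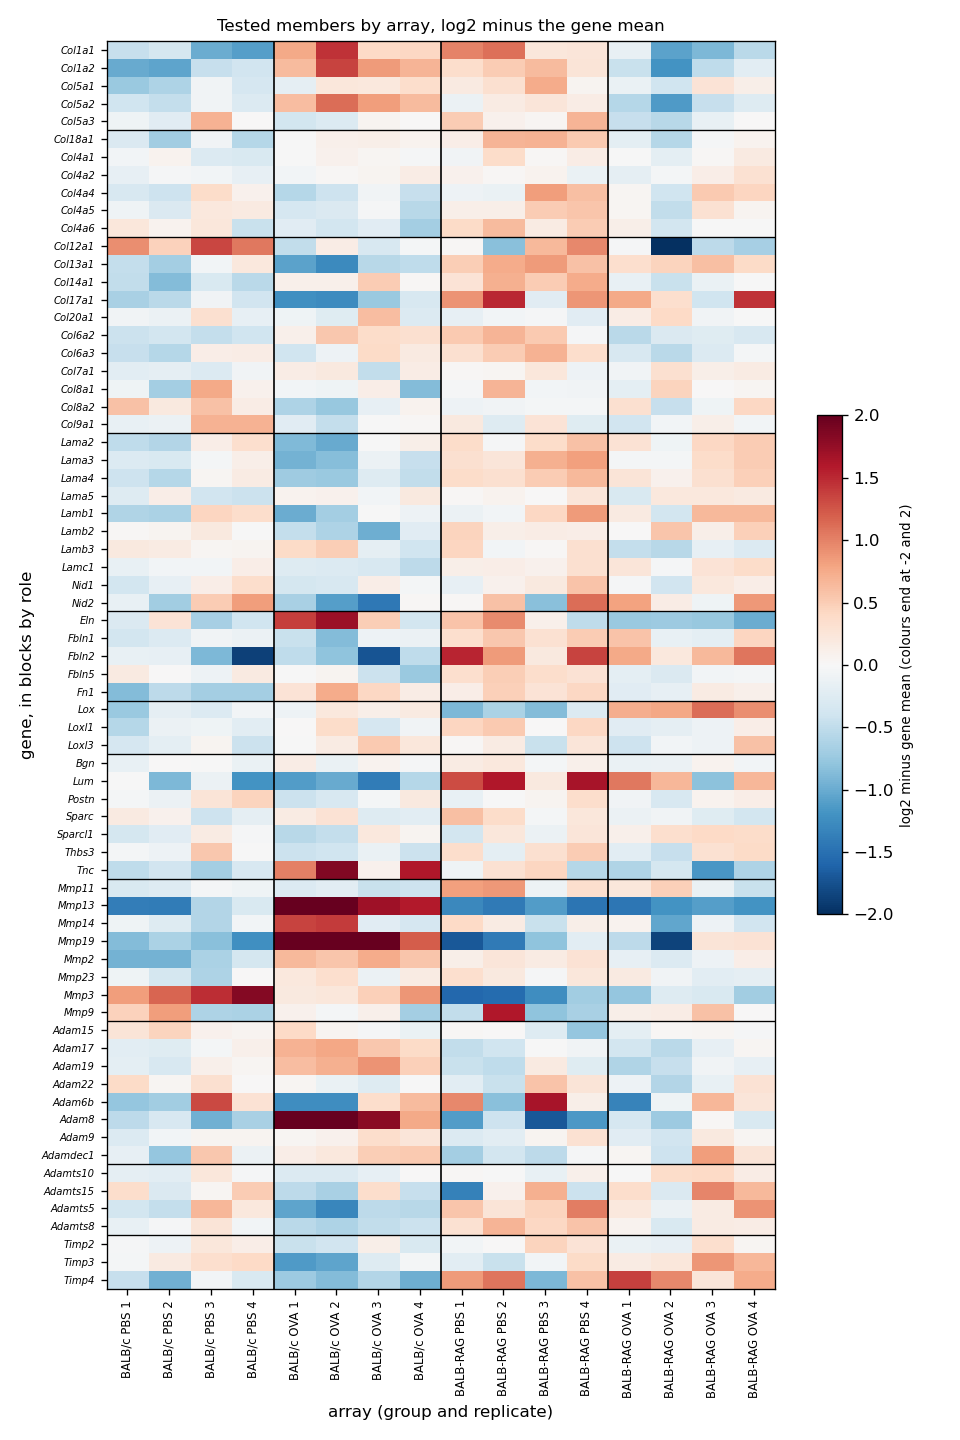
Each tested matrix gene (70 rows in blocks by role) on each array (16 columns), as log2 intensity minus the gene's mean over all arrays. Red is above and blue below the mean, and colours end at -2 and 2. Col1a1, Col1a2 and Col6a2 are red in BALB/c OVA and BALB-RAG PBS, Mmp13, Mmp19 and Adam8 are red in BALB/c OVA, and Lox is red in BALB-RAG OVA.

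Genes that make and shape the matrix were taken from lists beside the matrix genes. Over all genes 8.73% rose and 6.78% fell in BALB/c after OVA. Of 9 tested genes of collagen processing none rose and 3 fell (33.3%). The 3 were P4ha1, which hydroxylates proline in collagen (log2 -0.91 (SE 0.26, adjusted p = 0.0233)), Plod2, which hydroxylates lysine (-0.70 (SE 0.16, adjusted p = 0.00606)), and P3h2, a prolyl 3-hydroxylase (-0.54 (SE 0.15, adjusted p = 0.0209)). Of 24 other matrix proteins 3 rose (12.5%) and 5 fell (20.8%). The rises were Tgfbi, a matrix protein induced by TGF-beta (1.91 (SE 0.21, adjusted p = 2.32e-05)), Ccdc80 (1.11 (SE 0.18, adjusted p = 0.000586)) and Mfap4, a protein of elastic microfibrils (1.10 (SE 0.29, adjusted p = 0.0164)). The falls were Ogn, Prelp, Efemp1, Vtn and Npnt, between log2 -0.76 and -1.32.

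Of 10 growth and signal genes Pdgfc and Tgfbr1 rose in BALB/c by log2 1.08 and 0.69, and Tgfbr3 fell by 1.16 on the log2 scale. Ccn2, a matricellular growth factor, was the one gene of these lists called in BALB-RAG after OVA, at 1.15 (SE 0.18, adjusted p = 0.012), where Lox was called too. Its BALB/c difference was -0.25 (adjusted p = 0.416). Of 7 other matrix-degrading enzymes and their regulators, cathepsin B (Ctsb) and heparanase (Hpse) rose in BALB/c, by 1.46 (SE 0.20, adjusted p = 0.000124) and 1.68 (SE 0.39, adjusted p = 0.00818).

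Of the 70 genes 34 (48.6%) were called in at least 1 of the 5 comparisons, against 28.1% of all genes tested, and 36 in none. Among the 36 were the abundant lung matrix transcripts Bgn, Sparc, Sparcl1 and Postn and the type IV chains Col4a1, Col4a2, Col4a4, Col4a5 and Col4a6. A further 26 genes were under the filter, and 19 of them had no probe set over log2 4 on any array. They included Mmp10, Mmp1a, Mmp1b, Mmp20, Col11a1, Fbn2, Lamc3 and Thbs2. More than 1 probe set was available for 21 of the 96 genes.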

How the data were processed

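GCRMA, a method that removes background and quantile-normalises probe signals before summarising them, made the values, per the submitters' processing notes, which give no version. The deposited table holds linear intensity (2.32 to 35181), of which log2 was taken. The number of arrays limits the precision, and no columns were identical.

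In the deposited table labels and values are shifted against each other. As in earlier work on these data, 4000 labels took values 64 positions above and 2800 took values 16168 positions below. Another stretch of 7500 labels took values 47 positions below. An earlier account put these 47 positions above, but probe sets of the same gene then correlated at a median of 0.0272 across arrays (440 pairs), against 0.618 (637 pairs) below. Over all 14300 labels the median was 0.639 after realignment (1168 pairs) and 0.14 as deposited (738 pairs). This choice used no group labels, but the correlations run over all arrays and so include differences between the groups. No document of the submitters describes the shift. Labels with several symbols (366) or none (788) were left out.

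A gene with several probe sets was represented by the one of highest mean and was tested if it passed log2 4 on 4 or more arrays. limma 3.58.1 (R 4.3.3) fitted 4 group means over 16 arrays with 12 residual degrees of freedom. Its p-values were adjusted by Benjamini-Hochberg over 7276 genes, with a threshold of 0.05. The fit was also run on simulated data drawn independently for each array. Those data lack the correlation between arrays of a set, so they do not test the fit under it. Where the lower group had every array under log2 4, values under 4 were set to 4 and the fold is given as "at least". Genes named per comparison are the 12 called genes that rose most and the 8 that fell most, up to 2 per role with the smallest p in BALB/c, counts of 5 or fewer, and Lox, Col1a1, Col1a2, Eln and Fn1. The matrix genes, roles and lists were chosen with earlier results of these data known.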

Additional observations from a re-analysis of the deposited data

Results flagged for a closer look

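Arrays that stood far from the other 3 of their group were found in 9 of 280 groups of 4 (70 genes), and chance alone would give about 1 in 20. Mmp9 was at log2 7.42 on BALB-RAG PBS replicate 2, with the others at 5.02 to 5.33, and at 5.14 on BALB/c OVA replicate 4 (others 5.79 to 5.92). Col7a1 was at 3.94 on BALB/c OVA replicate 3 (others 4.58 to 4.64), Col8a1 at 5.27 on BALB-RAG PBS replicate 2 (4.52 to 4.57) and Lama5 at 6.84 on BALB-RAG OVA replicate 1 (7.32 to 7.36). Eln was at 7.94 on BALB-RAG OVA replicate 4 (8.17 to 8.20) and Lamb2 at 8.01 on BALB-RAG PBS replicate 1 (7.68 to 7.71). Thbs3 was highest on replicate 3 in both BALB/c groups, at 8.71 after PBS (8.06 to 8.15) and 8.03 after OVA (7.73 to 7.77). The Mmp9 array with 7.42 also had the highest S100a8, at log2 12.71.

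The OVA responses of the lines differed by the interaction term of limma for 19 genes, as BALB/c minus BALB-RAG on the log2 scale. The differences were 4.30 for Mmp13, 2.78 for Col1a1, 2.69 for Mmp19, 2.63 for Col1a2, 2.31 for Tnc, 2.16 for Eln, 1.91 for Adam8 and 1.82 for Col5a2. They were 1.66 for Mmp2, 1.52 for Col6a2, 1.47 for Col14a1, 1.44 for Fn1, 1.17 for Col18a1, 0.96 for Col6a3, 0.94 for Col5a1 and 0.84 for Adam19. Negative differences were -1.63 for Mmp3, -1.41 for Timp3 and -1.15 for Lox.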

How the results depend on the processing

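Replicates 3 and 4 alone gave 9 calls among the matrix genes for OVA in BALB/c, 0 for OVA in BALB-RAG, 6 for the difference of responses, 3 for the lines after PBS and 10 after OVA. Over all 7276 genes they called 378 higher and 169 lower for OVA in BALB/c (635 and 493 with all arrays). The difference of responses gave 155 and 57 (337 and 281). The lines gave 22 and 30 after PBS (143 and 141) and 289 and 404 after OVA (847 and 882). With only the 2 groups compared in the fit, the lines after PBS gave 8, against 69 higher and 73 lower over all genes. For OVA in BALB-RAG, replicates 1 and 2 alone gave 0 calls, 2 were found after centring, with a filter at log2 6, with the mean of all probe sets or with values under log2 4 set to 4, 3 with no filter or after quantile normalisation, and 9 with a term for replicates 1 and 2 against 3 and 4. Over all genes these fits ranged from 1 higher and 2 lower (replicates 1 and 2 alone) to 38 and 29 (term for the sets). The main fit called 10 and 2.

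With the replicate number as a block, OVA gave 30 calls in BALB/c and 5 in BALB-RAG. The block gave 24 calls for the difference of responses, 19 for the lines after PBS and 35 after OVA. Calls over all 7276 genes rose with it too. They were 944 higher and 820 lower for OVA in BALB/c and 23 and 18 for OVA in BALB-RAG. The difference of responses gave 587 and 565, and the lines 309 and 300 after PBS and 1207 and 1246 after OVA. Same-numbered arrays correlated at a median of 0.300 (0.025 to 0.497) in their deviations from the group means, with 23 of 24 pairs over 0.1. Arrays of another number in the same set (1 and 2, or 3 and 4) correlated at 0.314 and 6 of 16 arrays were closest to their own number, so the correlation follows the sets and the numbers were not taken as pairs. With a term for the sets in the fit, 17 matrix genes rose and 11 fell for OVA in BALB/c (972 and 848 of all genes). The difference of responses gave 19 more positive and 5 more negative (603 and 611). The lines gave 18 higher and 1 lower after PBS (303 and 332) and 21 and 16 after OVA (1246 and 1286).

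Leaving out each array in turn gave 14 to 21 calls for OVA in BALB/c, 1 to 2 in BALB-RAG, 13 to 20 for the difference of responses, 8 to 15 for the lines after PBS and 25 to 33 after OVA. The calls over all genes varied as well, from 478 to 650 higher and 312 to 519 lower for OVA in BALB/c. For the lines after PBS they were 80 to 265 higher and 84 to 153 lower. Averaging its probe sets reversed Lamc1 between the lines after OVA, to log2 -0.07, because the second probe set goes the other way. The cause of the other changes was not tested.

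Signal over background limits the 26 genes under the filter and the folds given as "at least".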
